A study of Talinum fruticosum with 24 samples.

Results

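The features described here are 33 leaf transcripts of the waterleaf Talinum triangulare (labelled Talinum fruticosum) that stood close to the mock level at 80 and 160 min after a spray with abscisic acid (ABA) and were clearly higher with ABA at night and on the next morning. They were chosen by their measured values out of 16461 features with a mean count of at least 10, from 20617 with a count in any library. The measure was the ABA-minus-mock difference, the mean log2(CPM + 1) of ABA libraries less that of mock libraries, where CPM is the count per 1000000 counts of the library total after TMM correction for composition. A member had to differ by at least 1 at 640 and at 1280 min, by less than 0.4 in either direction at 80 and at 160 min, and by more than -0.5 at 320 min. The differences at those 5 harvests are therefore a description of the choice and carry no test, while the difference at 40 min played no part in it. The libraries of 40 min did enter the mean count and the TMM correction.

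Leaves of plants 2 months old were sprayed on the upper side with 200 µM ABA or with a mock solution, both in methanol and Tween-20. The first spray fell 4 h after the start of a light period of 12 h, and the second came 4 h after the first. Harvests took place at 40, 80 and 160 min (midday), 320 min (afternoon), 640 min (night) and 1280 min (next morning), counted from the first spray. With 2 treatments this makes 12 groups of 2 libraries. Each library pooled 2 leaves of a single plant, and the libraries of a group came from different plants. All plants received equal amounts of water, as needed, to avoid drought. The 320 min harvest fell 9.33 h after lights-on and 80 min after the second spray, the 640 min harvest 2.67 h after lights-off, and the 1280 min harvest 1.33 h into the next light period. Elapsed time, time of day and, from 320 min, the second spray cannot be told apart across harvests. Library totals ran from 16577222 to 26846579 counts. The identifiers are not paired with gene names in the files, so the labelled leaf tissue was not checked against marker genes and no function is given for any feature. In whole leaves, fewer cells of a type and less RNA per cell cannot be told apart.

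ABA is the hormone that plants make under drought. Its receptors, once bound, hold back a class of protein phosphatases, which frees kinases that act on ion channels of guard cells and on transcription factors. Some targets of these factors respond quickly, and others follow through later steps or along with the daily rhythm. In this species water shortage or ABA can induce CAM (crassulacean acid metabolism), a mode of photosynthesis with uptake of carbon dioxide by night, its storage as malic acid, and release of that acid's carbon in the following light period.

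The members were mostly of low abundance. Their mean level over the 24 libraries ran from 0.419 to 466 CPM with a median of 4.41 CPM, against a median of 11.6 CPM over all 16461 features. Of the 33, 8 had a mean of at least 20 CPM, 7 lay between 5 and 20 CPM, 16 between 1 and 5 CPM and 2 under 1 CPM. All 33 passed the filter on low values, which is the mean count used in the choice. At 80 min 14 members and at 160 min 11 members were under 1 CPM in both treatments. At those levels a constant of 1 added to the CPM keeps the difference small whatever the ratio, so closeness to mock in the early harvests is weakly defined for them.

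At 40 min, the ABA contrast that was not used in the choice, no member passed the threshold of edgeR's quasi-likelihood test (adjusted p under 0.05 over all 16461 features). Of all features tested, 0.14% were called higher and 0% lower. At this harvest 14 of the members were under 1 CPM in both treatments, and KMT13373 had no counts in the 4 libraries. For members with so few reads the test could hardly call a difference, so they are not shown to be unchanged. At an unadjusted p under 0.05 there was 1 member, against 3.91% of all features. DESeq2 also called 0 members, at an unadjusted p under 0.05 again 1. The unadjusted count was 4 when only the 4 libraries of 40 min were fitted, again with 0 after adjustment. For neither of these fits was the unadjusted share over all features taken. The 3.91% belongs to the main fit, so nothing is read from these counts. The median ABA-minus-mock difference of the members was 0.04, from -0.34 to 0.66, beside -0.00386 over all features. The member with the lowest p was KMS98369, with 0.188 and 0.323 CPM in the mock libraries and 0.635 and 0.702 CPM in the ABA libraries, a log2 fold change of 1.35 ± 0.61 (SE; edgeR's quasi-likelihood test, adjusted p = 1). These are 3 and 6 counts against 10 and 12, so the value rests on few reads. In 8 members both ABA libraries lay above both mock libraries at 40 min, an order shared by 16.2% of all features, and in 2 they lay below, an order shared by 16.7%.

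Most members, chosen by their night and morning differences, also stood apart from mock leaves in the afternoon, before the night began. The limit of -0.5 at 320 min was a lower one only. The median difference there was 0.80 (lowest -0.32, highest 1.58), beside -0.01 over all features. At 320 min 13 of the 33 members were at least 1 apart, against 4.58% of all features, and 29 were at least 0.4 apart (13 and a further 16), against 17.3% of all features. Since the same harvest entered the rule, nothing is read from these shares. In 31 members both ABA libraries lay above both mock libraries at 320 min, against 34.3% of all features. The median member had reached 58.5% of its 640 min difference by then, and 9 members had reached it in full. The members under the step of 0.4 at 320 min were KMT20742 (-0.32), KMT03835 (0.20), KMT13373 (0.39) and KMT19085 (0.40 as printed, just under the step). The last was named after its values were seen. In the first pair the ABA and mock libraries overlapped. In KMT13373, which had at most 13 counts in a library, and in KMT19085 both ABA libraries lay above both mock libraries.

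**Figure D1:**
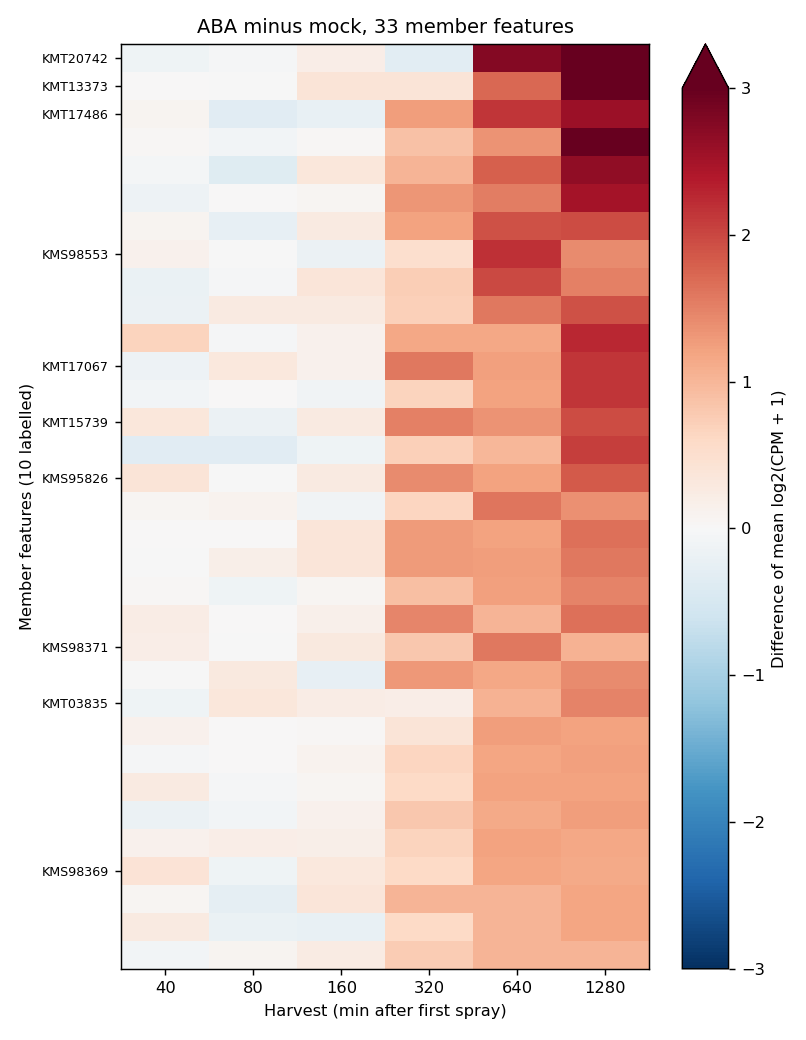
Each row is 1 of the 33 members and each column a harvest in min after the first spray; colour gives the ABA-minus-mock difference of mean log2(CPM + 1), red for higher with ABA, on a scale that is cut at 3 at its upper end. Columns up to 160 min hold differences between -0.36 and 0.66, the 320 min column is at 0.4 or more for 29 members, and all rows are at or above 1 in the last 2 columns by the choice of members.

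The features most apart in the afternoon were KMT17067 and KMT15739. KMT17067 held 17.8 and 18.5 CPM in mock leaves at 320 min and 54.8 and 57.6 CPM in ABA leaves, a difference of 1.58. Through the 12 libraries of 40 to 160 min it had lain between 8.83 and 36.4 CPM, higher at 160 min than at 40 min under both treatments. At night it stood at 38.7 ± 2.54 CPM in mock and 92.5 ± 6.65 CPM in ABA leaves (SD, n = 2 for each). By 1280 min mock leaves were at 17.7 ± 0.306 CPM while ABA leaves were at 82.6 ± 17.1 CPM, a difference of 2.14. From night to morning the mock libraries were clearly lower, while the ABA libraries of both harvests overlapped. Mock and ABA libraries did not overlap at 320, 640 or 1280 min.

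At night, 640 min, the median difference was 1.22 (1.00 to 2.76), beside -0.02 over all features. Without the added constant, ABA leaves held a median of 3.34 times the mock CPM, and 14 members held at least 4 times and 5 at least 8 times. For this, 1 member without mock counts was given a floor of 3 counts over the mock group. The 5 had at most 14 counts in any mock library of that harvest. The choice favours such ratios, and they were not taken over all features. In all 33 members both ABA libraries lay above both mock libraries, which the choice favours. Of all features, 32.5% show that order. The largest difference was that of KMT20742, with 0.518 and 0.0993 CPM in mock leaves (14 and 3 counts) and 5.49 and 10.8 CPM in ABA leaves. KMS98553 came next, with 3.52 and 3.64 CPM against 16.9 and 23.5 CPM, a difference of 2.20. Unlike KMT20742, KMS98553 also stood higher in mock leaves at 640 min than at any other harvest, its mock level being 0.229 ± 0.0577 CPM at 40 min, 2.02 ± 0.164 CPM in the afternoon and 0.454 ± 0.160 CPM in the next morning (SD, n = 2 per group).

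A few members had next to no reads in mock leaves at night. KMT06727, named after its values were seen, had 0 counts in both mock libraries at 640 min, whereas ABA libraries held 39 and 48 counts, so the level was at least 25-fold higher with a floor of 3 counts over the mock group. KMT11820 had 1 mock count against 41 and 66, a ratio of 92.3 (exact 95% counting interval 16.2 to 3680). KMS98435 had 2 mock counts against 36 and 56, a ratio of 39.7 (interval 10.7 to 332). Both were also named after their values were seen. This harvest chose the members, so the bound and intervals cover counting error in these libraries only and test nothing. The 3 features passed the mean count of 10 largely through the late ABA libraries. All 3 were near 0 in the early harvests too, with at most 4 counts in any library from 40 to 160 min. In mock leaves they never had more than 8 counts in a library.

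On the next morning, 1280 min, the median difference was 1.59 (1.02 to 4.18), beside 0.04 over all features, and ABA leaves held a median of 4.55 times the mock CPM. The morning difference exceeded the night difference by at least 0.4 in 15 members, lay within 0.4 of it in 15 and was smaller by at least 0.4 in 3. Separation was again complete in all 33, against 37.1% of all features. KMT20742 was highest here too, with 1.71 and 2.58 CPM in mock leaves and 27.6 and 111 CPM in ABA leaves, a difference of 4.18. The ABA libraries were far apart, and leaving out replicate 2 of the ABA group gave 3.20, whereas leaving out replicate 1 gave 5.17. KMT13373 followed with 1.09 and 0.189 CPM in mock leaves (16 and 3 counts) and 8.92 and 26.5 CPM in ABA leaves, a difference of 3.39. It had no counts at all in the 4 libraries of 40 min and at most 10 counts in any library up to 160 min. At 160 min its ABA libraries held 10 and 4 counts and both mock libraries 0, a difference of 0.38, just inside the early window. At 320 min its ABA libraries held 7 and 13 counts and its mock libraries 2 and 0.

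The ABA libraries of 1280 min were the least alike, for the members and over all features. The median replicate SD over members was 0.41 on the log2(CPM + 1) scale there and between 0.09 and 0.30 in the other 11 groups. Over all features the 2 libraries correlated at 0.976, against 0.983 to 0.995 in the other 11 groups. Neither this SD nor the 2-fold counts below were taken over all features. Replicate 2 lay above replicate 1 in 24 of the 33 members and was at least 2-fold higher in 11, while over all features it lay above in 53.2%. The order was as uneven in the other late ABA groups, with replicate 2 above in 26 members at 320 min (51.1% of all features) and in 25 at 640 min (49.6%), at least 2-fold in 7 and 0. The median morning difference fell between 1.34, with replicate 1 alone for ABA, and 1.81, with replicate 2 alone. Without ABA replicate 2, 25 of the 33 members still met the rule, and the other 8 had a morning difference under 1. Of the named features these were KMT03835 (0.76), KMS98369 (0.85) and KMS98371 (0.88). KMT03835 held 1.63 CPM in replicate 1 and 6.32 CPM in replicate 2, against 0.478 and 0.630 CPM in mock leaves. With 2 libraries, neither can be called the one that stands apart.

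**Figure D2:**
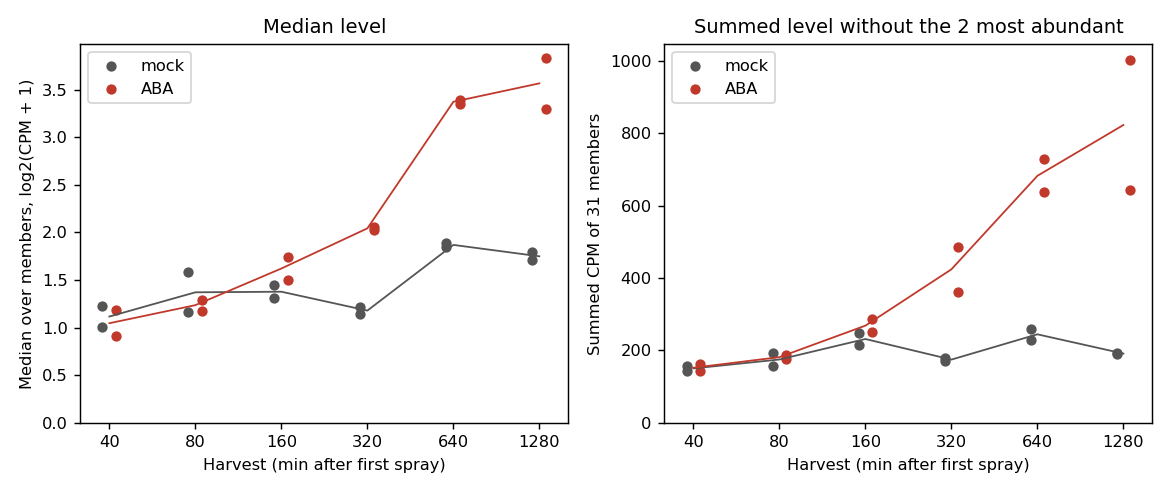
Points are single libraries and lines the means of 2 libraries for mock (grey) and ABA (red) leaves at each harvest in min after the first spray, with the median log2(CPM + 1) over the 33 members on the left and the summed CPM of 31 members, without the 2 most abundant, on the right. The medians of ABA libraries run from 0.91 to 3.83 and lie above those of both mock libraries from 160 min on, and at 1280 min the ABA libraries lie apart at 642 and 1004 summed CPM against 190 and 193 in mock leaves.

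A difference from mock leaves can arise in leaves of either treatment, so each treatment was followed from 160 min, the last harvest of the early window. The median member level was then 1.38 ± 0.0955 in mock and 1.62 ± 0.168 in ABA leaves (log2(CPM + 1); SD, n = 2 per group), so the libraries were already slightly apart. From 160 to 640 min, ABA leaves were higher by at least 0.4 in 25 members, of which mock leaves were also higher in 10, lay within 0.4 in 11 and were lower in 4. In 5 members ABA leaves lay within 0.4 of their earlier level while mock leaves were lower, and in 3 both were lower. Over all features, 22.6% were higher by that step in ABA leaves and 24.7% in mock leaves, and 23.2% and 21.6% lower. From 160 to 1280 min, ABA leaves were higher by at least 0.4 in 28 members and mock leaves in 7, with 16 of the 28 within 0.4 in mock leaves. Mock leaves were lower by that step in 10 members. Over all features 26.4% were higher in ABA leaves, and in mock leaves 32.7% were higher and 30.4% lower, so the mock counts of the members are near or below those shares. The median change from 160 to 1280 min was 1.26 in ABA leaves and 0.01 in mock leaves, beside -0.01 and 0.03 over all features. Both mock and ABA libraries of the late harvests entered the rule, so these counts describe the members and test nothing.

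**Figure D3:**
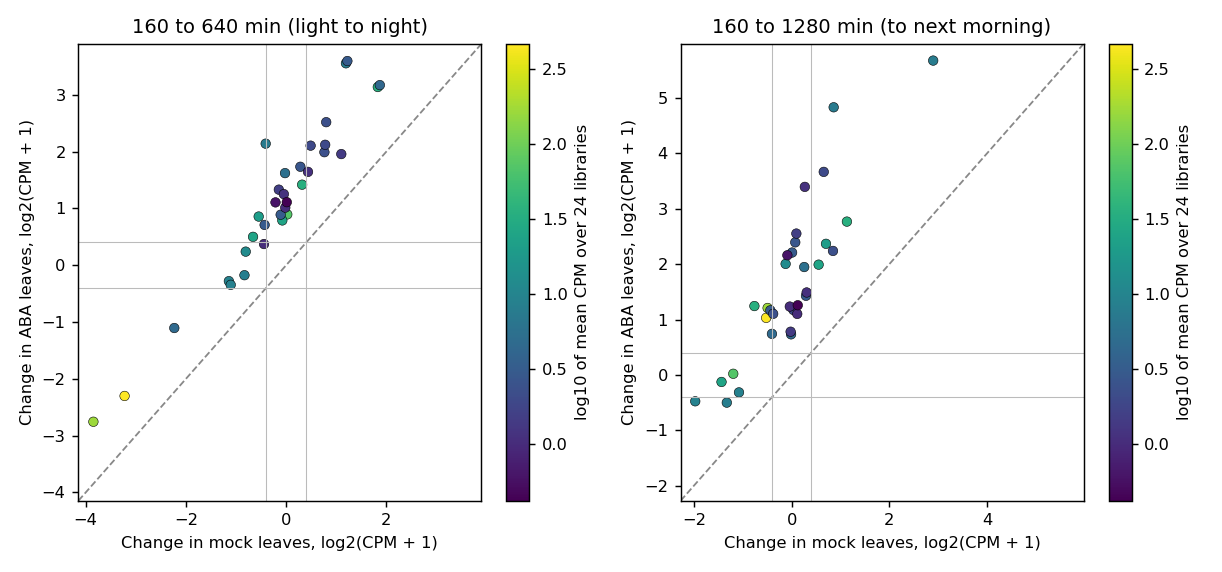
Each point is 1 of the 33 members, placed by its change in mock leaves (horizontal) and in ABA leaves (vertical) on the log2(CPM + 1) scale from 160 to 640 min on the left and from 160 to 1280 min on the right; colour is log10 of the mean CPM, the dashed line marks equal change and grey lines mark 0.4 in either direction. All points lie above the dashed line, and the pair at the lower left of the first panel are the most abundant members, which were lower at night under both treatments.

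Most members were highest in ABA leaves on the next morning, and a smaller group at night. The highest ABA mean fell at 1280 min for 20 members (60.6%), at 640 min for 8 and at an earlier harvest for 5. Over all features 26.4% had it at 1280 min and 18.8% at 640 min. The choice favours high ABA levels at these harvests, so the members' excess over all features is partly built in. Other features at least 1 apart at both harvests lay outside the early window. Of the 306 that were higher early, 52.9% had their highest ABA mean at 1280 min. Of the 28 that were only lower early, 67.9% had it there, so the members' share lies between these. In mock leaves the highest mean fell at 1280 min for 11 members, at 640 min for 10 and earlier for 12, beside 30.4% of all features at 1280 min and 20.1% at 640 min, so the mock share at 1280 min is near that of all features. All 11 members with a mock maximum at 1280 min had their ABA maximum there too, and 7 of the 10 with a mock maximum at 640 min had their ABA maximum at 640 min. In the median the mock level of the members was 0.29 higher at 640 min and 0.34 higher at 1280 min than at 40 min. The range over members was wide, from -3.85 to 2.27 at 640 min.

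KMS98371 and KMT17486 had the largest increase in mock leaves from 320 to 640 min, by 2.26 and 1.36. KMS98371 stood at 1.07 and 0.779 CPM in mock leaves at 320 min and at 7.73 and 8.71 CPM at 640 min, and in ABA leaves at 2.10 and 2.60 CPM and then at 21.0 and 33.8 CPM. At 1280 min mock leaves held 1.36 and 1.64 CPM, within their range of 40 to 320 min. ABA leaves held 3.58 and 4.69 CPM, above each of their libraries up to 320 min. Its highest mean thus fell at 640 min under both treatments, with 3.34 times the mock CPM at night and 2.76 times in the morning. KMS98371, KMS98553 and KMS95262 are the 3 members whose night difference exceeded the morning one by at least 0.4, the last named after its values were seen.

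KMT17486 stood higher at 640 min than at 320 min and higher again at 1280 min, under both treatments. Its mock libraries held 0.0822 and 0.346 CPM at 320 min, 1.85 and 2.38 CPM at 640 min and 8.53 and 9.76 CPM at 1280 min. Its ABA libraries held 1.07 and 2.95 CPM, then 10.2 and 15.9 CPM, and then 38.0 and 91.0 CPM. ABA leaves at 640 min were thus above mock leaves at 1280 min in both libraries. From 40 to 160 min no library had more than 11 counts, and levels stayed at or under 0.592 CPM.

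The most abundant members, KMS95826 and KMT15739, went the other way, with their lowest mean at 640 min under both treatments. KMS95826 lay between 350 and 874 CPM in the 12 libraries of 40 to 160 min. In mock leaves it then stood at 138 and 131 CPM at 320 min, at 57.8 and 42.4 CPM at 640 min and at 399 and 270 CPM at 1280 min. ABA leaves held 362 and 362 CPM, 103 and 128 CPM, and 1258 and 1084 CPM at the same harvests. Its level in the afternoon and night was therefore lower than before under both treatments, less so with ABA, and its morning level with ABA was above every other library. KMT15739 went the same way at a lower level, with 35.5 and 35.5 CPM in mock and 107 and 98.8 CPM in ABA leaves at 320 min, 11.1 and 10.1 against 23.7 and 34.4 CPM at 640 min, and 155 and 89.6 against 511 and 415 CPM at 1280 min. The ratio of KMS95826 to KMT15739 had a median of 2.88 over the 24 libraries, with extremes of 2.42 and 5.21. They had the largest decrease in mock leaves from 320 to 640 min, by log2 values of -1.43 and -1.65, and ABA leaves differed by -1.64 and -1.81 over the same time. Whether they share reads through similar sequence cannot be told from the files used here.

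**Figure D4:**
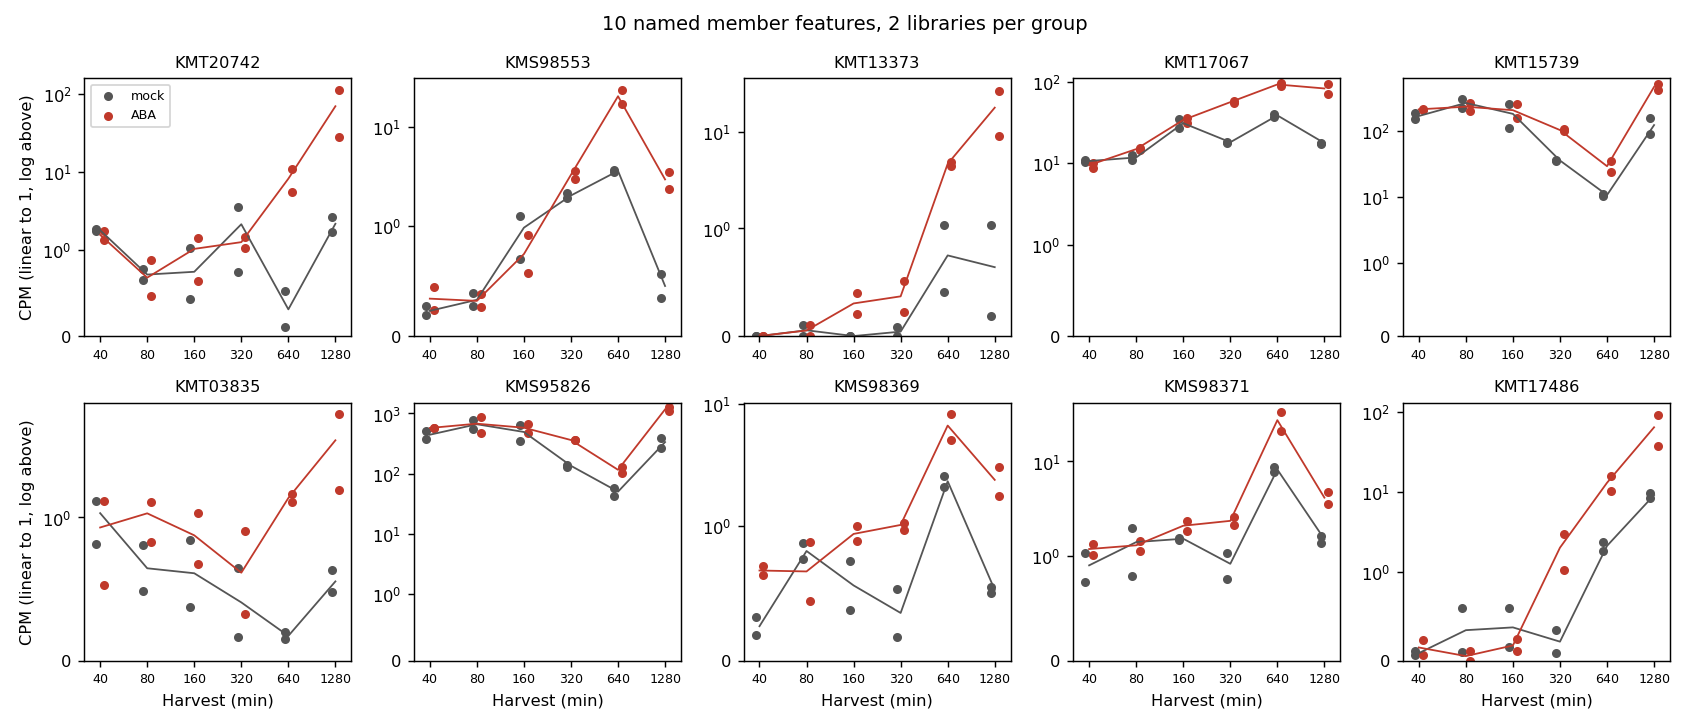
CPM of the 10 named members against harvest in min, with 1 point per library, lines through the means of 2 libraries, mock in grey and ABA in red; the vertical axis is linear up to 1 CPM and logarithmic above. KMS95826 and KMT15739 dip at 640 min under both treatments, and KMS98371, KMS98553, KMS98369 and KMT17067 have their highest means there. KMT20742, KMT13373, KMT17486 and KMT03835, and also the pair that dips, have their highest means in ABA leaves at 1280 min.

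The summed level of the members depends on that pair. Taken over all 33, the sum was 345 ± 12.3 CPM in mock and 889 ± 82.1 CPM in ABA leaves at 320 min, 305 ± 9.47 and 827 ± 89.3 CPM at 640 min, and 648 ± 135 and 2457 ± 65.0 CPM at 1280 min, each with its SD over 2 libraries. At the last midday harvest, 160 min, the sums were 905 ± 327 and 1054 ± 239 CPM, which overlap. The pair held from 16.6% to 85.9% of the sum, depending on the library. Without them, an alternative added after seeing the data, the sum in ABA leaves was 268 ± 25.8 CPM at 160 min, 424 ± 88.2 CPM in the afternoon, 682 ± 64.0 CPM at night and 823 ± 256 CPM in the morning. Mock means stayed between 150 and 245 CPM over the 6 harvests.

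The members are a small part of the features that were higher with ABA both at night and in the morning. In all, 724 features were at least 1 apart at 640 min, 1372 at 1280 min and 367 at both, of which 306 were already at least 0.4 higher at 80 or 160 min and 28 were at least 0.4 lower at one of them without being higher at the other. The median difference of the 306 went from 0.43 at 80 min to 1.36 at 160 min. It was 1.47 in the afternoon, 1.56 at night and 1.82 in the morning, where the 33 members stood lower in the median with 0.80, 1.22 and 1.59. The median of the 28 was 0.86, 1.58 and 2.09 at these harvests. The 306 had a median mean level of 14.1 CPM against 4.41 CPM in the 33. A morning difference at least 0.4 above the night one was seen in 45.5% of the members, 39.9% of the 306 and 32.1% of the 28. The rule separates these sets, so no test of their difference was made.

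The limits of the rule are not gaps in the data. The member nearest to the night limit differed by 1.00 and the nearest feature outside, with all other conditions met, by 0.98. For the morning these values were 1.02 and 0.95. The size of the difference reached 0.36 at 80 min and 0.38 at 160 min among members, and the nearest features outside stood at 0.40 in either case. In all, 444 features failed only at 640 min, 56 only at 1280 min, 121 only at 160 min and 21 only at 80 min, and none failed only at 320 min.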

How the data were processed

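RNA of 24 leaf libraries was sequenced as polyadenylated, strand-marked libraries, per the labels' protocols. The deposited files hold whole-number counts per feature, 1 list per library, without normalisation, and a feature missing from a list was taken as 0. CASAVA, Trimmomatic and DESeq2 are named in the submitters' processing notes, without roles. The sources used here do not give the aligner, the counting tool, the reference or the use of strand. Counting may thus have divided reads among features that overlap or are nearly identical. The submitters state that conditions and replicates in the labels were corrected after deposition, and the labels used are the corrected ones. Counts were scaled with TMM factors (0.659 to 1.69) from features with a mean count of at least 10, in edgeR 4.0.16 and R 4.3.3, with all counts as library size.

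The test at 40 min was edgeR's two-sided quasi-likelihood F-test with robust spread, fitted to all 24 libraries with 12 group means (12 residual degrees of freedom) and Benjamini-Hochberg adjustment over 16461 features at 0.05. Each SE is the log2 fold change over the square root of F. The fit and the rule were tried on simulated counts with larger changes and higher levels than most members had. That trial does not show how they perform for features like the members. DESeq2 1.42.0 was an alternative. The edgeR expression filter by group would have kept 17561 features and all 33 members.

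The members, the rule and the tests were chosen with earlier results of these data known. Named features are at most 2 each way per comparison: the largest differences at 640, at 1280 and (highest and lowest) at 320 min, the highest mean CPM, the lowest p at 40 min, and the largest mock increase and decrease from 320 to 640 min. This gave 10 features. Others named are said to be so. Marker genes of leaf cell types were not looked up, since no table pairs the identifiers with names, and no sequence is shown for the same reason. Plants differed between replicates, so the SDs over 2 libraries include plant, leaf and library.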

Additional observations from a re-analysis of the deposited data

Results flagged for a closer look

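KMT17067 was flagged because its libraries point in opposite ways at different harvests, a pattern looked for in all 10 named features. At 40 min both ABA libraries (8.83 and 10.2 CPM) lay below both mock libraries (10.5 and 10.9 CPM), an ABA-minus-mock difference of -0.15 on the log2(CPM + 1) scale, while both lay above at 80 min (14.7 and 15.3 against 11.0 and 12.7 CPM) and from 320 min on, and at 160 min they overlapped. At 40 min the log2 fold change was -0.17 ± 0.16 (SE; edgeR adjusted p = 1). Of all features, 16.7% had both ABA libraries below both mock libraries at 40 min, so that order alone says little. The change between harvests was not tested, since the later harvests chose the member. No group has more than 2 libraries, so no single library could be examined as an outlier.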

How the results depend on the processing

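The number of members depends on the limits. It was 128 with library size alone (all 33 included), 74 and 18 with a late limit of 0.8 and 1.2, and 60 and 21 with an early window of 0.5 and 0.3. It stayed within 1.5 times of 33 in the other 7 settings and with each of the 20 libraries of 80 to 1280 min left out (23 to 44), but not with the same features: a pseudocount of 0.5 gave 37, of which 26 were members, and 2 gave 26, of which 17 were.

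The median difference at 320 min was 1.01 with library size alone, 0.98 and 0.61 with pseudocounts of 0.5 and 2, and 0.69 to 1.08 with 1 library left out; at 640 min it was 1.56, 1.51, 1.10 and 1.14 to 1.41, and at 1280 min 2.16 with library size alone, which moved the median of all features to 0.21, 0.18 and 0.56 at these harvests. The mock median from 40 to 160 min (0.33) was 0.56 with library size alone and 0.47 with a pseudocount of 0.5. From 40 to 320 min (0.08) it was 0.26 with library size alone. From 40 to 640 min (0.29) it was 1.09 with library size alone, 0.42 with a pseudocount of 0.5 and 0.23 to 0.50 with 1 mock library left out. From 40 to 1280 min (0.34) it was 0.19 with a pseudocount of 2 and 0.20 to 0.40 with 1 left out. The summed level in ABA leaves at 1280 min (2457 CPM) was 2935 with library size alone, 1286 without the most abundant member and 823 without the 2 most abundant, the last pair added after seeing the data. Causes were not tested. Of the differences of the 10 named features at 640 and 1280 min, 24 of the alternative values moved beyond the replicate spread, 13 of them with library size alone; the lowest was 0.65, for KMT03835 at 640 min with a pseudocount of 2. Their sign was fixed by the choice of members.

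At 40 min 0 members were called in every alternative, with a lowest adjusted p (edgeR) of 0.373 when only the 4 libraries from 40 min were fitted and between 0.964 and 1 otherwise. A replicate block within each harvest also gave 0, and 0 members at an unadjusted p under 0.05, with 19 features called in place of 23. Deviations of same-numbered libraries correlated at -0.0365 at 40 min and between -0.141 and 0.131 elsewhere, so the numbers were not taken as pairs.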
